A study of Caenorhabditis elegans with 17 samples.

Results

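The clec genes are the C-type lectin-like genes of Caenorhabditis elegans. They were taken as every protein-coding gene in the deposited small RNA count tables whose symbol begins with clec- and a number. The rule gave 240 gene IDs with 280 transcripts, which is 1.17% of the 20535 protein-coding gene IDs in the tables. The tables carry WormBase gene IDs but no symbols for ordinary protein-coding genes, so symbols and coordinates were looked up by gene ID in the Ensembl annotation of the WBcel235 genome, where 98.6% of all IDs matched.

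C-type lectin-like proteins carry a fold related to the sugar-binding domain of lectins, and most are secreted or sit in the plasma membrane. The family is greatly expanded in nematodes, many members are expressed in the intestine, and a number of them are induced by bacterial infection or needed for resistance to it. Small RNAs antisense to an mRNA are, in worms, mostly secondary siRNAs that RNA-dependent RNA polymerases such as RRF-1 copy from the mRNA. The nuclear Argonaute NRDE-3 is one of the proteins that bind such siRNAs. Sense reads on an mRNA can be fragments of the mRNA itself.

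The study sequenced small RNAs from worms with defects in the RNA exosome, the complex that trims and degrades nuclear RNA. There were 17 libraries, 1 per condition, so no difference below has a replicate check and no p-value can be given. All worms were kept at 20 °C, and the labels name OP50 as the food while the study's methods name HT115 bacteria for feeding RNAi. Of the libraries, 8 hold total small RNA of L3 larvae: the wild type N2, the single mutants dis-3(ust56), exos-1(ust57) and eri-1(mg366), and eri-1(mg366) combined with dis-3(ust56), with exos-1(ust57) or with exos-10(ok2269). The last of the 8 has rrf-1(pk1417) and rrf-2(ok210) on top of the eri-1 and dis-3 alleles. Another 5 libraries hold RNA bound to the 3xFLAG::GFP::NRDE-3 transgene product of L3 larvae, and all of these animals, the control included, carried eri-1(mg366). Beside that control they had the dis-3, exos-1 or exos-10 allele, or the dis-3, rrf-1 and rrf-2 alleles together. The last 4 libraries hold total small RNA of young adult eri-1(mg366) worms fed empty vector L4440 or RNAi food against fib-1, mtr-4 or nol-56. DIS-3 is an exosome nuclease, EXOS-1 a subunit of its RNA-binding cap, EXOS-10 the nuclear exosome nuclease, MTR-4 a helicase that feeds the nuclear exosome, and FIB-1 and NOL-56 are core proteins of box C/D snoRNPs. The dis-3(ust56) animals are viable with a changed residue in an otherwise complete protein, so they are no null mutants. ERI-1 is a nuclease needed for some endogenous siRNAs, and its loss is shared by all NRDE-3 and all RNAi libraries. Allele names are left out from here on, and the library with the eri-1, dis-3, rrf-1 and rrf-2 alleles is called the rrf-1;rrf-2 library.

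Reads on annotated transcripts numbered 5094172 to 11556168 in the L3 total libraries, 7485478 to 11036220 in the NRDE-3 libraries and 12155042 to 17155933 in the RNAi libraries. Reads antisense to protein-coding genes, the base of every antisense level below, ranged from 44615 in the NRDE-3 library of eri-1;dis-3 to 2600675 after mtr-4 RNAi. An antisense level is given as RPM, reads per 1000000 antisense protein-coding reads of the same library, and a sense level likewise per 1000000 sense protein-coding reads. Sense reads of the nrde-3 gene were 17586 RPM or more in 4 NRDE-3 libraries and 5720 RPM in the exos-10 one. The 6 vitellogenin genes, yolk genes of the adult intestine, had 36838 to 72123 sense RPM in the young adult libraries and 3.29 to 38.3 in the L3 total libraries. In the NRDE-3 libraries they had 1900 RPM in the control, 16.7 in dis-3, 321 in exos-1, 2613 in exos-10 and 112 with rrf-1 and rrf-2 also lost, so the NRDE-3 libraries differed in an adult marker although all are labelled L3. The part of this difference in the NRDE-3 results was not tested. The control and dis-3 NRDE-3 libraries also stood apart from the other 3 by the gene clec-72, and each NRDE-3 family result is therefore given with and without it.

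Most clec genes had few antisense reads. Over the 17 libraries, 23 members had none, 120 reached at most 9 reads in their richest library, 79 reached 10 to 99, and 18 reached 100 or more. At least 10 reads in some library were found for 97 members, 40.4%, against 59.6% of all protein-coding genes, and at least 100 for 7.5% against 24%. Per length, the median mean antisense level of the members was 1.54 RPM per kb of exon, against 4.19 over all protein-coding genes, and the median mean sense level was 1.43 against 6.65. The family was thus below the typical gene on both strands.

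The members lay on all 6 chromosomes, with 86 on V, 53 on IV, 48 on II, 36 on I, 14 on III and 3 on X. Chromosome IV held 24 of the 97 members with at least 10 antisense reads, V held 29 and II held 23. An annotated gene on the opposite strand, not counting genes of the small piRNAs, overlapped 45 of the members, among them clec-87, clec-147, clec-150 and clec-161. The counting is by strand, but reads of such a partner gene and antisense reads of the member cannot be told apart where the transcripts overlap. Over all libraries, 174 members had more sense than antisense reads, 60 had more antisense and 6 had equal numbers. Across the 97 members, mean antisense and mean sense level per kb had a Spearman rho of 0.28, a description across genes that share libraries.

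Antisense reads of the whole family made up 978 RPM in N2, 1963 in dis-3, 1571 in exos-1 and 1507 in eri-1. In the eri-1 combinations they made up 1878 RPM with dis-3, 1274 with rrf-1;rrf-2, 2670 with exos-1 and 2269 with exos-10. On this scale N2 was the lowest of the L3 total libraries and eri-1;exos-1 the highest. The order depends on the scale, since by the total that leaves out sense rRNA and sense protein-coding reads eri-1;exos-1 stood at 0.908 of eri-1. The NRDE-3 libraries had 34724 RPM in the control, 116867 in dis-3, 2430 in exos-1, 1380 in exos-10 and 1630 in the rrf-1;rrf-2 library. After L4440, fib-1, mtr-4 and nol-56 RNAi the family had 1019, 943, 991 and 1129 RPM. Without clec-72 the 17 libraries lay between 941 and 2667 RPM, and the NRDE-3 control and dis-3 libraries stood at 1150 and 2152 RPM.

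**Figure D1:**
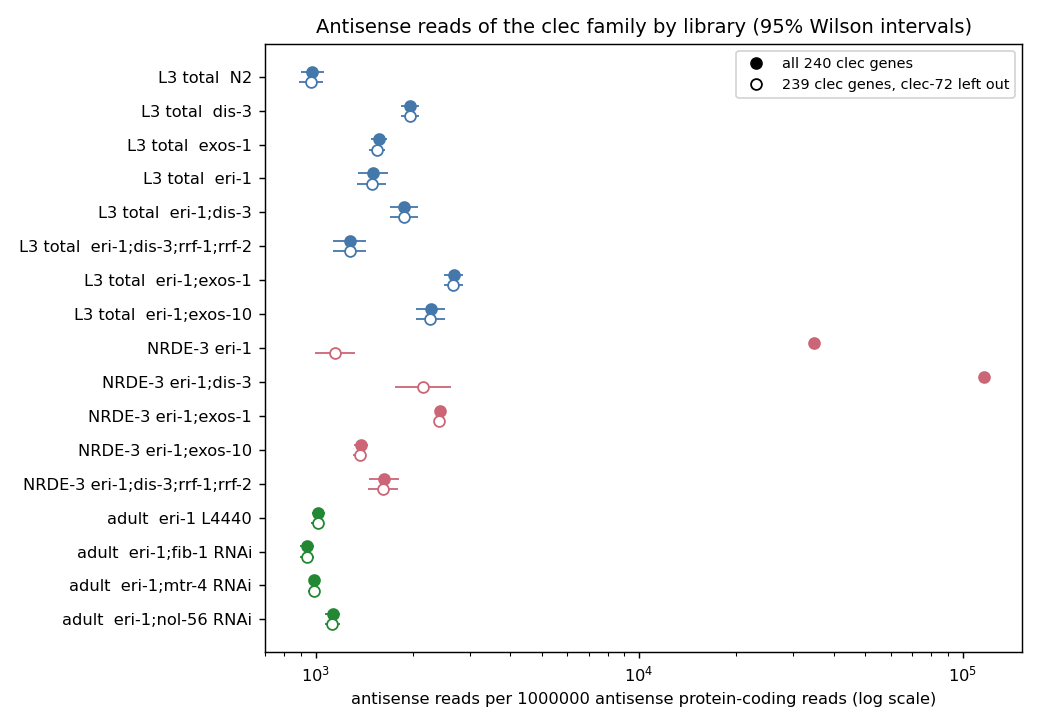
Antisense reads of the clec family in each of the 17 libraries, on a log axis in reads per 1000000 antisense protein-coding reads. Filled circles are all 240 members and open circles leave out clec-72; bars are 95% Wilson intervals of the share, which cover counting error only, and colours mark L3 total (blue), NRDE-3 (red) and young adult RNAi (green) libraries. Only the NRDE-3 control and dis-3 libraries separate the 2 symbols widely, at 34724 against 1150 RPM and 116867 against 2152 RPM.

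The gene clec-72 (WBGene00021583, transcript Y46C8AL.5) lies on the plus strand of chromosome IV from 3944816 to 3947362 in WBcel235 and has 1482 exonic bases in 9 exons. Not counting piRNA genes, no annotated gene overlaps it on the opposite strand. Its antisense reads numbered 5577 in the NRDE-3 control library, which is 33574 RPM or 3.36% of all antisense protein-coding reads, and it was the gene with the second most antisense reads there (rank 2). In the NRDE-3 library of eri-1;dis-3 it had 5118 reads, 114715 RPM or 11.5%, and was the leading gene (rank 1). In these libraries clec-72 supplied 96.7% and 98.2% of the antisense reads of all clec genes.

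The other 3 NRDE-3 libraries had 34 clec-72 antisense reads in exos-1, 13 in exos-10 and 3 in rrf-1;rrf-2, or 27.1, 10.9 and 14.9 RPM. In the 8 L3 total libraries the lowest, median and highest numbers were 0, 2.5 and 16 reads, with the 16 in exos-1. The RNAi libraries had 6 reads with L4440, 3 with fib-1, 9 with mtr-4 and 2 with nol-56. High clec-72 was thus limited to 2 of the 17 libraries, and the other 15 had at most 34 reads.

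**Figure D2:**
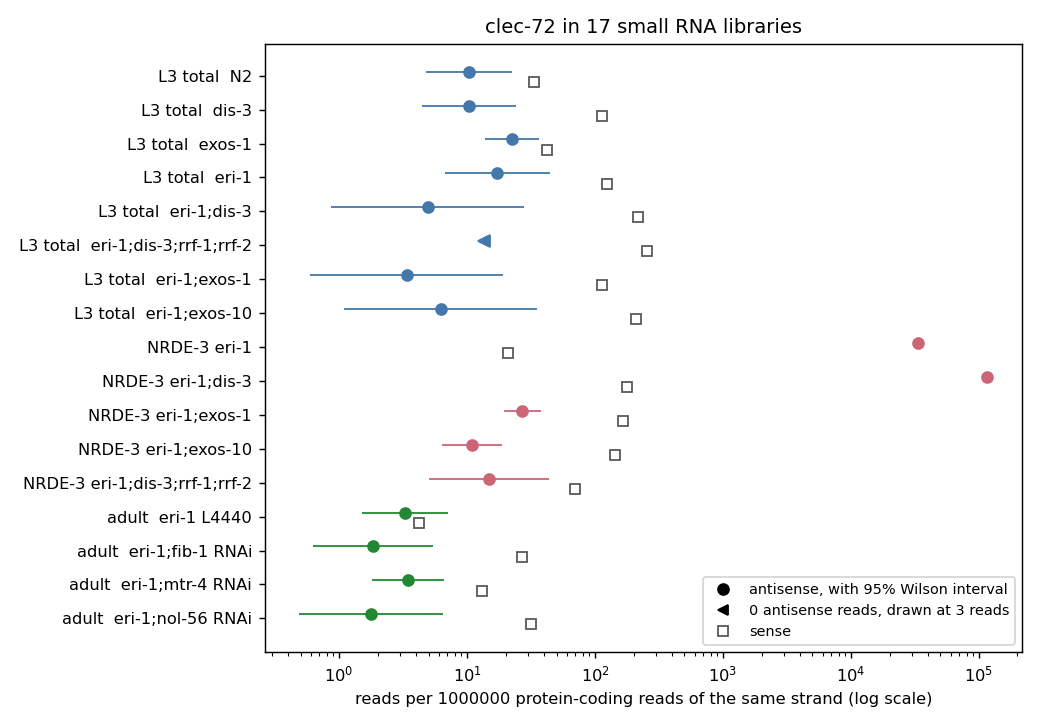
Antisense (circles) and sense (open squares) level of clec-72 in the 17 libraries, on a log axis in reads per 1000000 protein-coding reads of the same strand. Bars are 95% Wilson intervals, and the triangle marks a library with 0 reads at the level of 3 reads. Antisense reads stand at 33574 RPM in the NRDE-3 control and 114715 RPM in NRDE-3 dis-3 and at 27.1 RPM or less elsewhere, while the sense level stays between 4.19 and 255 RPM.

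Between NRDE-3 libraries, clec-72 was 3.42-fold higher in dis-3 than in the control (95% interval 3.29 to 3.55). It was 1238-fold lower in exos-1 than in the control (885 to 1790) and 3087-fold lower in exos-10 (1804 to 5801). In the rrf-1;rrf-2 library clec-72 stood 7716-fold below the dis-3 library, with an interval of 2639 to 37430 since only 3 reads remained. Scaled by the normalization number, a total that leaves out sense rRNA and sense protein-coding reads, the ratio to the control was 8.91 for dis-3, 0.00306 for exos-1 and 0.00112 for exos-10, and by the median over genes of the ratio between libraries, called the median of ratios, it was 2.20 for dis-3. These and all later intervals are exact conditional 95% intervals of a ratio of read counts. They cover counting error only and compare 2 libraries, not 2 conditions.

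Against the total small RNA library of the same genotype, clec-72 was 1944-fold higher in the NRDE-3 control (759 to 7136), where the total library had 4 reads. For eri-1;dis-3 the total library had 1 read and the ratio was 23269 (4174 to 919248). For exos-1 34 reads with NRDE-3 stood against 1 in the total library, a ratio of 8.02 (1.35 to 326), and for exos-10 13 against 1, a ratio of 1.74 (0.262 to 74.1). The last interval includes 1.

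Sense reads of clec-72 did not follow its antisense reads. They numbered 49 in the NRDE-3 control, 148 in dis-3, 631 in exos-1, 509 in exos-10 and 168 in the rrf-1 and rrf-2 combination, so the 2 libraries rich in antisense reads had the fewest sense reads. As levels these were 21.0, 177, 165, 145 and 69.3 RPM, the lowest in the control and the highest in dis-3, and the L3 total libraries spanned 33.4 to 255 RPM.

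The genes around clec-72 did not share its reads. Its nearest annotated protein-coding neighbours are mostly other clec genes: clec-68, clec-70, clec-71 and clec-174 before it, clec-73, clec-74 and clec-75 after it, all within 20000 bases of its start. Of these, clec-73 and clec-75 had at most 5 antisense reads in the NRDE-3 control or dis-3 library and the other 5 had 0. The highest neighbour counts lay in other libraries, with 53 reads of clec-73 in the exos-10 NRDE-3 library and 41 of clec-75 with L4440.

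Among the other members, clec-12 (chromosome I, 12476653 to 12478594) had the highest mean antisense level, with at most 35 sense reads in a library. It had 139 antisense reads in N2, 29 in dis-3, 5 in exos-1 and 94 in eri-1, that is 240, 59.9, 7.01 and 406 RPM. In the eri-1 combinations the reads were 32 with dis-3, 21 with rrf-1 and rrf-2 also lost, 3 with exos-1 and 19 with exos-10. Both exos-1 total libraries were the lowest: clec-12 was 34.3-fold lower than in N2 (14.3 to 107) and 40.0-fold lower than in eri-1 (13.3 to 198). It was lower with NRDE-3 than in the matched total library for eri-1, by 6.13-fold (3.27 to 12.7), and for exos-10, by 12.9-fold (5.82 to 29.9). For exos-1, 27 reads with NRDE-3 stood against 3 in the total library, a ratio of 2.12 with an interval that includes 1 (0.654 to 10.9). The RNAi libraries held 335, 192, 254 and 176 reads for L4440, fib-1, mtr-4 and nol-56.

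The gene clec-166 (chromosome IV, 1249192 to 1251342) had antisense reads in total small RNA of worms with wild-type eri-1 and almost none in that of eri-1 mutants. It had 96 reads in N2, 304 in dis-3 and 17 in exos-1, or 166, 627 and 23.8 RPM. The 5 L3 total libraries with the eri-1 mutation had 1, 1, 0, 5 and 2 reads, and the RNAi libraries 1, 1, 3 and 3. The level in eri-1 was 38.4-fold lower than in N2, with an interval of 6.73 to 1532. In dis-3 it was 3.78-fold higher than in N2 (3.00 to 4.81) and in exos-1 6.96-fold lower (4.13 to 12.4). NRDE-3 bound 41 reads in exos-1 and 10 in exos-10, with 0 in the other 3 NRDE-3 libraries.

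Reads of clec-238 (chromosome V, 16951804 to 16953629) numbered 26 in N2, 96 in dis-3, 25 in exos-1 and 36 in eri-1. With eri-1 they were 38 with dis-3, 29 with rrf-1 and rrf-2 also lost, and 4 with either exos-1 or exos-10. The level was 4.41-fold higher in dis-3 than in N2 (2.84 to 7.09). It was 11.5-fold lower in eri-1;exos-1 (4.12 to 44.5) and 6.23-fold lower in eri-1;exos-10 (2.23 to 24.1) than in eri-1. In exos-1 against N2 the ratio was 0.780 (0.432 to 1.41), an interval that includes 1, so the exosome mutants showed no common direction.

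The genes clec-161 and clec-147 had their most antisense reads in exos-1 mutants. The gene clec-161, on chromosome III from 9603003 to 9608750 overlapped by other annotated genes on the opposite strand, had 3 reads in N2, 7 in dis-3 and 34 in exos-1. In eri-1 it had 3, and in the combinations 6 with dis-3, 10 with rrf-1 and rrf-2 also lost, 102 with exos-1 and 22 with exos-10. The eri-1;exos-1 level was 26.6-fold above eri-1 (8.85 to 131). Of that library's matched NRDE-3 library, 11 reads were clec-161, which was 39.3-fold lower than in the total library (21.1 to 81.2). The gene clec-147, on chromosome II and overlapped by C04H5.1, had 3 reads in N2, 35 in dis-3 and 96 in exos-1, a 13.9-fold (4.39 to 70.8) and a 26.0-fold (8.62 to 128) higher level. NRDE-3 held at most 6 clec-147 reads in any library.

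The genes clec-41, clec-65 and clec-66 had both antisense reads and many sense reads, unlike clec-12 or clec-238. The product of clec-41 (chromosome V, 13134903 to 13138101) is known to contribute to defence against Bacillus thuringiensis. Its antisense reads numbered 11 in N2, 24 in dis-3, 50 in exos-1 and 17 in eri-1, and then 18, 1, 35 and 20 in the combinations with dis-3, rrf-1;rrf-2, exos-1 and exos-10. With NRDE-3 it had 8 reads in the control, 9 in dis-3, 273 in exos-1, 111 in exos-10 and 24 in the rrf-1 and rrf-2 combination. The exos-1 NRDE-3 level was 4.52-fold above the control (2.26 to 10.6) and 1.84-fold above its own total library (1.29 to 2.70). In the control and in exos-10 the NRDE-3 level of clec-41 was 0.656 (0.245 to 1.60) and 0.745 (0.460 to 1.27) of that in the matched total library, intervals that include 1. In dis-3 it was 2.27 (0.900 to 5.33). In the rrf-1;rrf-2 library it was 26.3 (4.29 to 1083), against 1 read in total RNA. Adjacent on chromosome II, clec-65 and clec-66 had 179 and 102 antisense reads in the exos-1 NRDE-3 library against 1 and 3 in the control. Both had 0 in the L3 total library without rrf-1 and rrf-2.

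Antisense reads of clec-119 and clec-125 were found in each of the 17 libraries. In the RNAi libraries clec-119 had 248, 269, 433 and 222 reads for L4440, fib-1, mtr-4 and nol-56, or 135, 166, 166 and 198 RPM, and it was the leading clec gene after each of the 3 targeted RNAi treatments. The L3 total libraries had 13.6 to 69.1 RPM of it. In L3 total RNA clec-125 had 11 reads in N2 and in eri-1, 37 in exos-1 and 34 in the rrf-1;rrf-2 library. It was 8.48-fold lower with NRDE-3 than in the total library for exos-1 (4.20 to 18.0) and 5.88-fold lower for exos-10 (3.52 to 9.75).

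**Figure D3:**
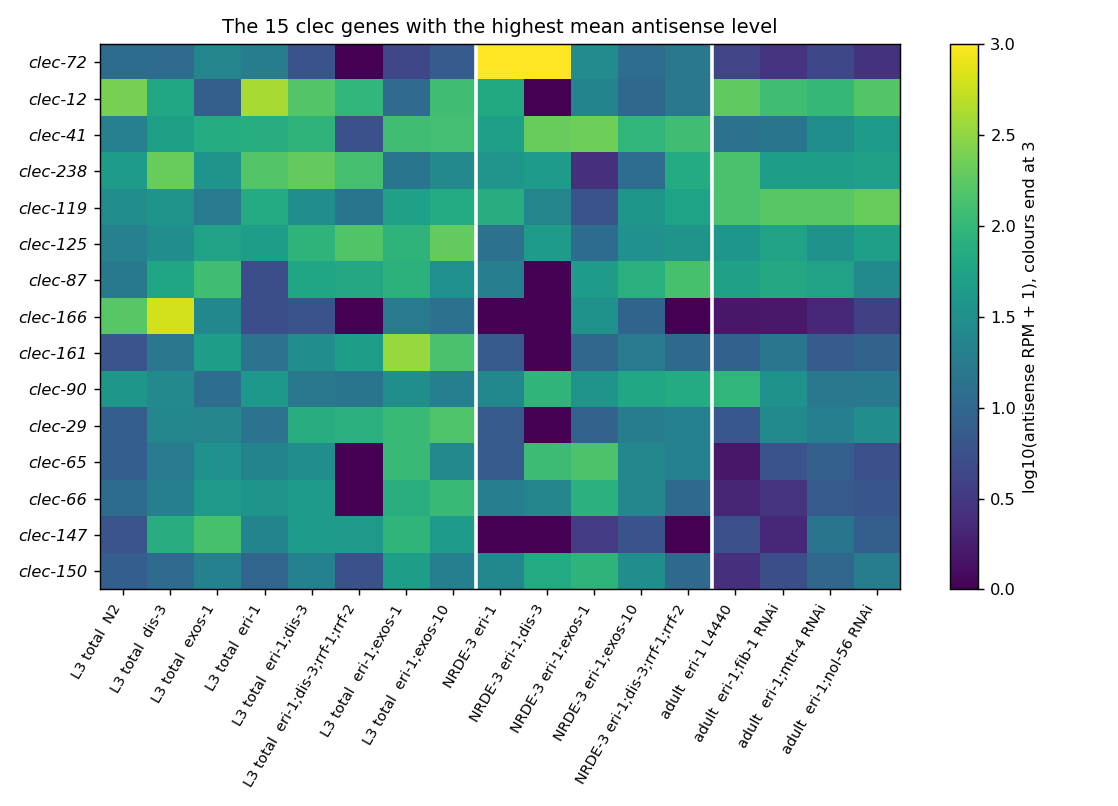
Antisense level of the 15 clec genes with the highest mean level over the 17 libraries, 1 row per gene and 1 column per library. Colour is log10(RPM + 1) and ends at 3, which only clec-72 in 2 NRDE-3 libraries exceeds; white lines separate L3 total, NRDE-3 and young adult libraries. The row of clec-166 is bright only in N2 (166 RPM) and dis-3 (627 RPM), and the row of clec-161 is brightest in eri-1;exos-1 (345 RPM).

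Comparisons across all members took genes that had 10 or more antisense reads in 1 or both of the libraries compared and called a member at a level at least 4-fold higher or lower, with counts under 3 reads set to 3. Few members pass this filter, a member can pass through the library in which it is high, and a count of calls describes 2 libraries. The filter also moves the median log2 ratio of the members tested toward the library in which more members pass. Medians of members and of all genes are therefore descriptions only. The share of all protein-coding genes called the same way is given beside each count at this fold and filter, also under another scaling. The exosome comparisons share their reference library within a background, so they are given side by side only. For several comparisons the split of higher and lower members under the normalization number or the median of ratios is given too.

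The comparison of eri-1 with N2 set siRNAs of the family without and with ERI-1 side by side. The 2 total libraries also differed in the nrde-3 gene. Its sense level was 765 RPM in eri-1 against 38.6 in N2, and its antisense reads were 831 against 5. The titles of the total libraries name no NRDE-3 transgene. The part of this difference in the family level was not tested and cannot be told apart from loss of ERI-1 here. The family level was 1.54-fold higher (1.35 to 1.76). Of 10 members tested, 0 were higher, against 4.38% of all genes, and 1 was lower, against 3.47%: clec-166. The median log2 ratio of the tested members was 0.40, against −0.41 for all genes tested. The normalization number gave 1 higher and 1 lower, against 4.89% and 2.98% of all genes.

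In dis-3 the family level was 2.01-fold that of N2 (1.81 to 2.23), and 1.64-fold without clec-166, the member with the most reads in these libraries. Of 21 members tested, 7 were at least 4-fold higher, against 7.19% of all genes, and 1 was lower, against 7.27%. The 7 included clec-147 and clec-238, and the lower member was clec-12, at 4.01-fold (2.67 to 6.21). The median log2 ratio was 1.72 for the members and −0.51 for all genes. At least 10 reads were held by 10 members in N2 and 18 in dis-3, but by 5734 and 4892 of all genes. How far the filter moves these 2 medians apart was not tested. Scaled by the median of ratios, the split was 11 higher and 0 lower, against 9.72% and 3.98% of all genes.

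In exos-1 the family level was 1.61-fold that of N2 (1.45 to 1.78), and 11 of 39 members tested were at least 4-fold higher, against 9.73% of all genes. Lower were 3 members, clec-12, clec-166 and clec-206, against 8.76%. The higher members included clec-65 at 4.67-fold (1.59 to 18.6), clec-87 at 7.57-fold (3.80 to 17.1), clec-147 and clec-161. The gene clec-2, singled out after its values were seen, had 68 antisense reads against 0 in N2, which is at least 18.4-fold higher with N2 at the floor of 3 reads in the library. The median log2 ratio was 1.70 for the members and −0.22 for all genes. At least 10 reads were held by 10 members in N2 and 34 in exos-1, and by 5734 and 6368 of all genes. The part of the filter in these medians was not tested. Either other scaling raised the higher members to 21 and left 2 lower. Of all genes, 13.2% were then higher and 6.10% lower by the normalization number, and 13.3% and 6.07% by the median of ratios.

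On the eri-1 background, dis-3 had a family level 1.25-fold that of eri-1 (1.07 to 1.45), a direction that turned to 0.717 when reads were scaled by the normalization number. Of 9 members tested, 2 were higher, clec-29 and clec-87, against 7.61% of all genes, and 0 were lower, against 6%. The normalization number gave 0 higher and 2 lower, against 2.85% and 15.8% of all genes. Reads of clec-29 were 15 against 3, a ratio of 5.71 (1.61 to 30.8), and those of clec-87 were 12 against 1, a ratio of 13.7 (2.03 to 586).

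With exos-1 on that background the family level was 1.77-fold higher (1.56 to 2.02), and 0.908 by the normalization number. Of 26 members, 10 were higher, against 13.5% of all genes, and 2 were lower, clec-12 and clec-238, against 7.59%. The higher members included clec-29 at 8.35-fold (2.61 to 42.6), clec-65 at 4.85-fold (1.87 to 16.0), clec-87, clec-147 and clec-161. The split was 2 higher and 2 lower by the normalization number, against 4.48% and 13.6% of all genes. By the median of ratios it was 6 and 2, against 9.94% and 8.66%. The median log2 ratio was 1.76 for the members, while all genes tested had 0.72.

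With exos-10 the family level was 1.51-fold that of eri-1 (1.30 to 1.75). Of 9 members tested, 3 were higher, clec-29, clec-161 and clec-185, against 15.2% of all genes, and 1 was lower, clec-238, against 5.02%. The ratio was 11.5 for clec-29 (3.51 to 59.9) and 10.6 for clec-161 (3.18 to 55.2). By the median of ratios the family ratio was 1.04. The split was then 3 higher and 2 lower, against 9.23% and 9.72% of all genes.

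The library without rrf-1 and rrf-2 addressed which reads need these polymerases in dis-3 mutants. In total small RNA the family level was 1.47-fold lower than in eri-1;dis-3 (1.26 to 1.73). Of 11 members tested, 0 were higher, against 1.71% of all genes, and 2 were lower, clec-41 and clec-143, against 4.07%. The normalization number gave 1 higher and 2 lower, against 3.22% and 3.04% of all genes. Reads of clec-41 numbered 1 against 18, 19.6-fold lower with an interval of 3.10 to 818, and those of clec-143 0 against 14, at least 5.09-fold lower at the floor of 3 reads. With NRDE-3 the clec-41 reads were not lost in this way. They numbered 24 without rrf-1 and rrf-2 against 9 in dis-3, or 119 and 202 RPM. Under 10 reads in both total libraries, clec-65 had 0 against 6 and clec-66 had 0 against 9. Other members had reads in both libraries: clec-29 had 15 and 18, clec-87 12 and 14, and clec-125 18 and 34. The ratios of these 3 genes were 1.10 (0.523 to 2.34), 1.07 (0.459 to 2.53) and 1.73 (0.95 to 3.26), intervals that include 1. Sense reads of rrf-1 stood at 20.7 RPM against 78 RPM and those of rrf-2 at 1.88 against 41.5 in the same libraries.

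Between NRDE-3 libraries, dis-3 had a family level 3.37-fold that of the control (3.24 to 3.49), and 1.87-fold without clec-72 (1.45 to 2.40). With clec-72 the ratio was 8.77 by the normalization number and 2.17 by the median of ratios. Only 3 members could be tested at this depth, with 0 higher, against 5.52% of all genes, and 0 lower, against 3.96%. By the normalization number 1 was higher and 0 lower, against 25.2% and 0.555% of all genes. The floor of 3 reads stood at 67.2 RPM in the dis-3 library, so lower levels there were set to that value when members were called.

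In exos-1 the NRDE-3 family level was 14.3-fold lower than in the control (13.7 to 14.9), but without clec-72 it was 2.09-fold higher (1.80 to 2.43). With clec-72 the ratio was 0.265 by the normalization number, against 0.0700. Of 62 members tested, 9 were higher, against 4.83% of all genes, and 2 were lower, clec-72 and clec-119, against 5.22%. The 9 included clec-13, clec-15, clec-41, clec-63, clec-65, clec-66 and clec-67. The ratio was 23.7 for clec-65 (4.20 to 942), 4.50 for clec-66 (1.5 to 22.2) and 6.82 for clec-67 (1.84 to 57.1), each against 3 reads or fewer in the control. Vitellogenin sense reads stood at 321 RPM in this library against 1900 in the control. The median log2 ratios were 0.25 for the members and 0.14 for all genes. The normalization number gave 35 higher, against 52.5% of all genes, and 1 lower, against 1.09%, and moved the median of all genes by 1.92.

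In exos-10 the NRDE-3 family level was 25.2-fold lower than in the control (23.8 to 26.6), and 1.19-fold higher without clec-72 (1.02 to 1.39). With clec-72 the ratio was 0.137 by the normalization number, against 0.0397. Of 49 members, 1 was higher, clec-87, against 4.3% of all genes, and 2 were lower, clec-12 and clec-72, against 5.01%. Reads of clec-87 numbered 95 against 3, a ratio of 4.40 (1.46 to 21.7). The gene clec-79 had 102 reads in this library and at most 22 in any other, at 85.3 RPM against 30.1 in the control, a ratio of 2.84 (1.18 to 8.92). The split was 17 higher and 1 lower by the normalization number, against 49.4% and 0.955% of all genes. By the median of ratios it was 0 and 3, against 3.11% and 6.19%.

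With rrf-1 and rrf-2 also lost, the NRDE-3 family level was 71.7-fold lower than in the dis-3 NRDE-3 library (64.1 to 80.4), and 1.33-fold lower without clec-72. Of 8 members tested, 0 were higher, against 2.79% of all genes, and 1 was lower, clec-72, against 3.02%. Reads of clec-87 numbered 27 in this library and 0 in the dis-3 one, at least 1.99-fold higher with the shallow dis-3 library at the floor of 3 reads.

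Between the RNAi libraries the sense level of the nrde-3 gene differed. It was 1109 RPM with L4440 and 192, 179 and 160 RPM after fib-1, mtr-4 and nol-56 RNAi. The part of this difference in the antisense and sense results against L4440 was not tested. It cannot be told apart from the RNAi treatments here. After RNAi in young adults the family level was 0.925 of that with L4440 for fib-1 (0.864 to 0.991), 0.973 for mtr-4 (0.917 to 1.03) and 1.11 for nol-56 (1.03 to 1.19). These ratios depend on the scaling: they were 0.669, 0.881 and 0.458 by the normalization number and 1.20, 2.20 and 2.04 by the median of ratios for fib-1, mtr-4 and nol-56, so no direction held for any of the 3 treatments. Under fib-1 RNAi, 3 of 34 members were higher, clec-17, clec-29 and clec-153, against 2.73% of all genes, and 0 were lower, against 2.95%. Under mtr-4 RNAi, 8 of 51 members were higher, against 3.97%, and 1 was lower, clec-90, against 12.7%. Under nol-56 RNAi, 6 of 33 were higher, against 5.71%, and 4 were lower, clec-88, clec-90, clec-91 and clec-143, against 16%.

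The median log2 ratio over the members tested was 0.48, 1.08 and 0.59 for fib-1, mtr-4 and nol-56, while over all genes tested it was −0.38, −0.99 and −1.0. Another scaling would shift both medians. By the median of ratios the splits were 4 higher and 0 lower, 27 and 0, and 12 and 0. Of all genes, 4.69%, 17.1% and 11.4% were then higher and 1.25%, 0.363% and 4.18% lower. By the normalization number the splits were 0 and 1, 6 and 1, and 1 and 9. Of all genes, 1.11%, 3.31% and 0.595% were then higher and 7.56%, 17.7% and 58.6% lower. Reads of clec-90 numbered 172 with L4440 and 53, 39 and 17 after fib-1, mtr-4 and nol-56 RNAi, and it was 6.26-fold lower after mtr-4 (4.40 to 9.11) and 6.2-fold lower after nol-56 (3.76 to 10.9). The gene clec-157 had 20 reads with L4440 and fib-1, 104 after mtr-4 RNAi and 9 after nol-56 RNAi, a ratio of 3.66 for mtr-4 (2.25 to 6.24). Higher after each RNAi was clec-29, with 10 reads under L4440 and 43, 48 and 32 under the treatments, at 4.86-fold (2.40 to 10.8), 3.38-fold (1.69 to 7.5) and 5.22-fold (2.50 to 11.9).

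**Figure D4:**
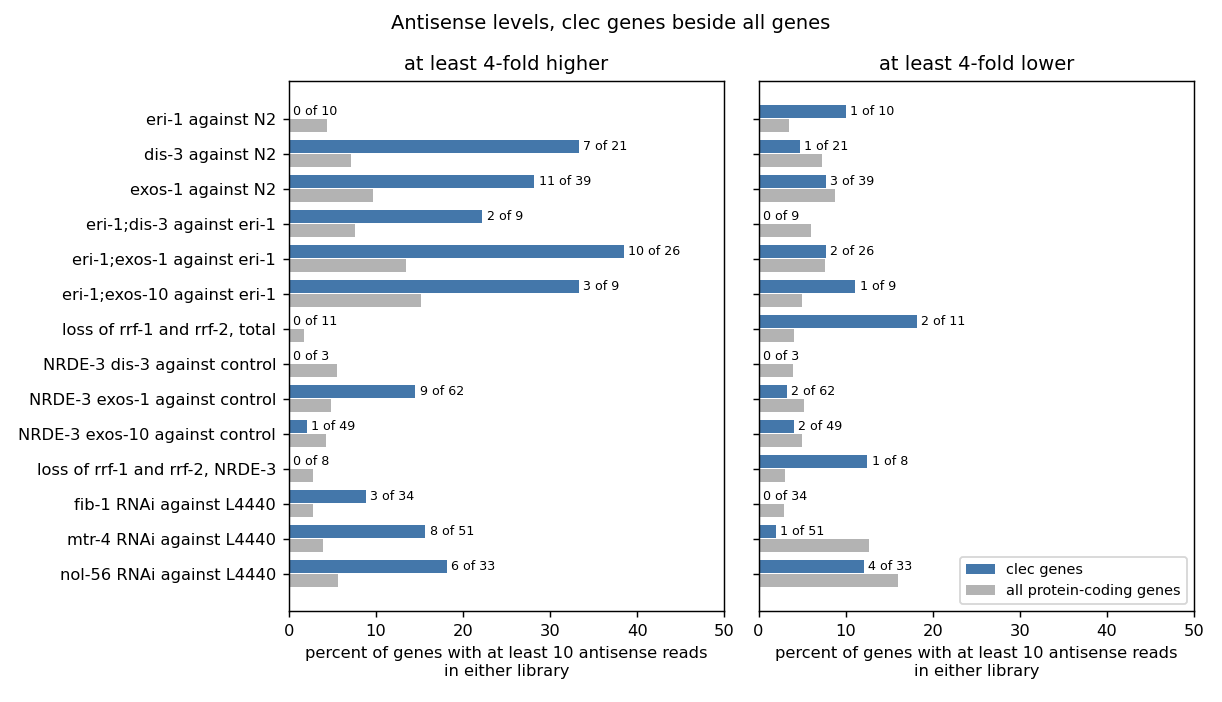
Share of clec genes (blue, with the number called of the number tested) and of all protein-coding genes (grey) with an antisense level at least 4-fold higher (left) or lower (right), among genes with 10 or more antisense reads in 1 or both libraries, for the 14 comparisons. The horizontal axes are percent of genes tested. The blue bar for higher levels is longest for eri-1;exos-1 against eri-1, at 10 of 26 against 13.5% of all genes.

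Further members with a known or proposed part in defence had at most 103 antisense reads in a library. Of 15 genes on a list of defence members, with clec-41, clec-65 and clec-87 among them, 12 reached 10 antisense reads in some library. Among all clec genes 40.4% did, and among all protein-coding genes 59.6%. The products of clec-4 and clec-42 are linked, like that of clec-41, to resistance against Bacillus thuringiensis, and these genes reached at most 23 and 16 antisense reads. The gene clec-60, which is induced by Staphylococcus aureus, had 40 reads with NRDE-3 in exos-1, 26 in exos-10 and at most 5 elsewhere. For clec-67 and clec-85, whose mRNAs depend on the p38 kinase PMK-1, the most reads were 103 and 73, again with NRDE-3 in exos-1. The most reads were 23 for clec-38, 15 for clec-49, 11 for clec-78 and 20 for clec-91. Outside this list, clec-50 and clec-63 had 106 and 91 reads with NRDE-3 in exos-1 against 6 and 1 in the control, and clec-1 and clec-150 had 17 and 110 in their richest libraries.

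Sense reads of the family spanned 4333 to 9367 RPM in the L3 total libraries, 2796 to 8478 with NRDE-3 and 4381 to 6701 in the RNAi libraries. The gene clec-63 (chromosome II, 12895638 to 12897446) was the leading member in each of the 17 libraries, with 17.6% to 45.3% of the family's sense reads. In L3 total RNA clec-63 had 1776 RPM in N2, 1073 in dis-3, 1462 in exos-1 and 3639 in eri-1, and its antisense reads were at most 10 in these libraries. The next members by mean sense level were clec-50, clec-41, clec-1 and clec-65. Sense and antisense leaders thus differed, since clec-41 and clec-65 alone were among the first 15 on the antisense strand.

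Sense reads of clec-52, a gene singled out after its values were seen, differed in all exosome comparisons. It had 14 sense reads in N2, 75 in dis-3, 160 in exos-1 and 18 in eri-1, or 18.0, 231, 136 and 28.9 RPM. In the eri-1 combinations it had 177 reads with dis-3, 73 with rrf-1 and rrf-2 also lost, 103 with exos-1 and 86 with exos-10. The RNAi libraries had 6 reads with L4440, 784 with fib-1, 286 with mtr-4 and 1372 with nol-56. Each exosome mutant was above N2, eri-1 or the NRDE-3 control, and each RNAi treatment was above L4440. The rrf-1;rrf-2 total library was lower than eri-1;dis-3, at 73 against 177 reads and 2.14-fold (1.62 to 2.85).

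For clec-52 the sense ratios were 12.9 for dis-3 (7.21 to 24.6) and 7.56 for exos-1 (4.38 to 14.1) against N2. Against eri-1 they were 10.2 with dis-3 (6.25 to 17.5), 5.86 with exos-1 (3.53 to 10.3) and 9.50 with exos-10 (5.67 to 16.8). With NRDE-3 they were 2.47 (1.61 to 3.76), 10.3 (7.74 to 13.9) and 6.45 (4.83 to 8.79) for the same mutants. Against L4440 they were 176 for fib-1 (80.5 to 481), 51.7 for mtr-4 (23.5 to 142) and 202 for nol-56 (92.5 to 551). Scaled by the normalization number these 11 ratios stayed above 1. Antisense reads of clec-52 were 0 in N2, 0 in eri-1 and 1 with L4440, and at most 96, in exos-1 with NRDE-3.

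Other members shared part of this pattern. Sense reads of clec-67 were 124 with L4440 and 579, 269 and 1824 after fib-1, mtr-4 and nol-56 RNAi. The ratios were 6.29 (5.17 to 7.70), 2.35 (1.90 to 2.94) and 13.0 (10.8 to 15.7). Against N2 the clec-67 ratio was 2.00 in dis-3 (1.24 to 3.21) and 0.93 in exos-1 (0.615 to 1.42). Against eri-1 it was 2.42 with dis-3 (1.78 to 3.31), 0.727 with exos-1 (0.483 to 1.09) and 1.76 with exos-10 (1.20 to 2.58). With NRDE-3 it was 3.04, 6.37 and 5.77 for the same mutants. For clec-60 the sense reads were 0 with L4440 and 90, 45 and 83 after the RNAi treatments, at least 40.4-fold, 16.3-fold and 24.4-fold higher. For clec-4 they were 12 and then 58, 11 and 123, so mtr-4 RNAi left them at a ratio of 0.995 (0.398 to 2.46).

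The opposite order held for clec-87 in adults. It had 2500 sense reads with L4440 and 1051, 1085 and 295 after fib-1, mtr-4 and nol-56 RNAi, or 552, 312, 260 and 57.5 RPM, and the nol-56 level was 9.60-fold lower (8.50 to 10.9). In L3 total RNA it had 5 reads in N2 and 28 and 69 in dis-3 and exos-1, ratios of 13.4 (5.12 to 44.6) and 9.13 (3.73 to 29). Chosen after their values were seen, clec-88 had 1253 sense reads with L4440 and 451, 448 and 65 after the treatments, and clec-223 had 754 with L4440 against 3, 28 and 7. Vitellogenin sense levels were also highest with L4440, at 72123 RPM against 43823, 60259 and 36838 after fib-1, mtr-4 and nol-56 RNAi, and major sperm protein levels were 4560 against 2764, 4235 and 2015 RPM. Whether the worms were at the same age and how that bears on these clec genes was not tested. In whole animals, fewer cells of a type and less RNA per cell cannot be told apart.

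**Figure D5:**
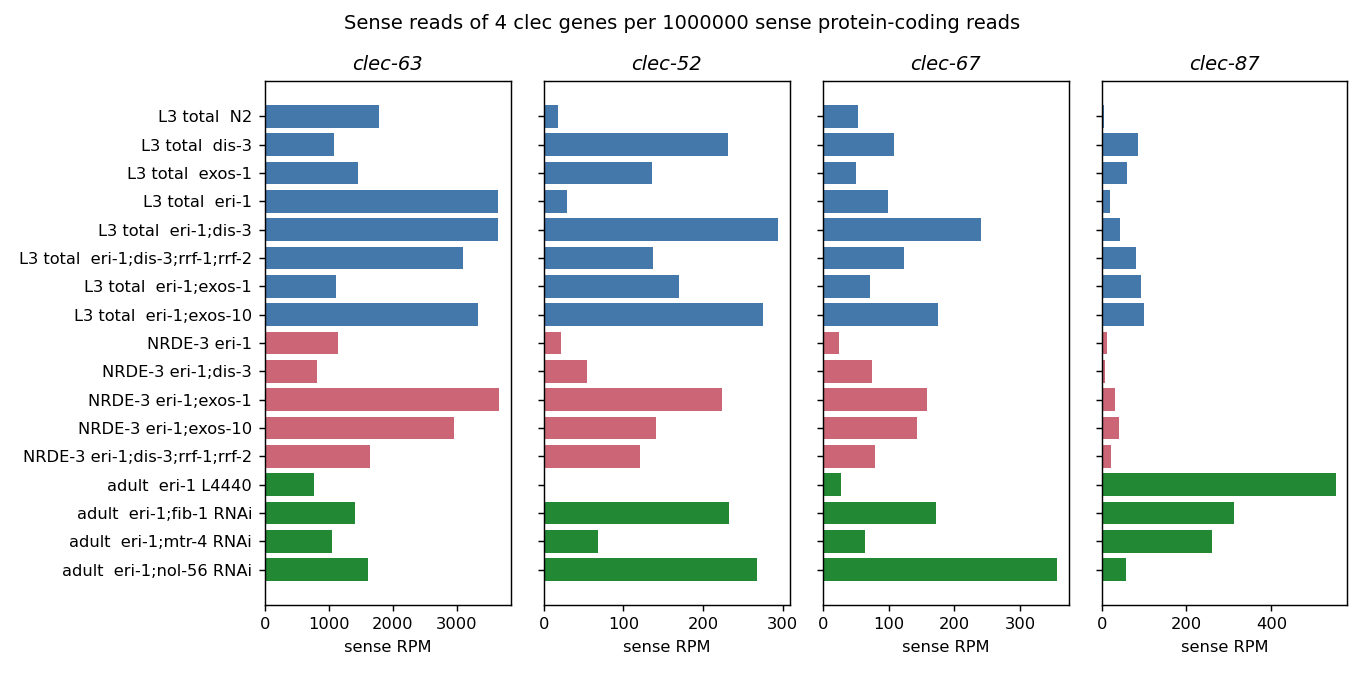
Sense reads of clec-63, clec-52, clec-67 and clec-87 per 1000000 sense protein-coding reads in the 17 libraries (blue L3 total, red NRDE-3, green young adult), each panel with its own linear axis from 0. Bars are single libraries, so there are no error bars. The bars of clec-52 are short in N2 (18.0 RPM), eri-1 (28.9), the NRDE-3 control (21.8) and L4440 (1.32), and those of clec-87 are longest with L4440 (552).

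Other immune genes, 91 in lists of lysozymes, saposin-like, antibacterial and infection response genes and immune signalling genes, were read the same way. At least 4-fold higher were 4 of 11 tested for dis-3 against N2, where 7.19% of all genes were, and 10 of 18 for exos-1, against 9.73%. Against eri-1 they were 4 of 9 with dis-3, 8 of 18 with exos-1 and 6 of 11 with exos-10, against 7.61%, 13.5% and 15.2% of all genes. Lower were 0 of 11 for dis-3 and 1 of 18 for exos-1 against N2, against 7.27% and 8.76% of all genes. Against eri-1 they were 0 of 9 with dis-3, 1 of 18 with exos-1 and 1 of 11 with exos-10, against 6%, 7.59% and 5.02%. The lower gene was zip-2 each time, a signalling gene. With so few genes tested, these counts show no lack of lower genes. The counts of these lists were not recomputed under another scaling. The lysozyme gene lys-1 and the saposin-like gene spp-1 were among the higher ones in all 5. The lists did not share a direction as summed antisense levels. The 9 immune signalling genes had 3442 RPM in N2, 2921 in dis-3, 1023 in exos-1 and 2652 in eri-1. In the eri-1 combinations they had 1725 with dis-3, 1484 with exos-1 and 1085 with exos-10, so in total small RNA their sum was lower in each mutant. Single genes went the other way, since tir-1 was called higher with dis-3, exos-1 and exos-10 against eri-1, and pmk-1 in exos-1 against N2. With NRDE-3 the sum was 2420 RPM in the control, 4303 in dis-3, 6602 in exos-1 and 1413 in exos-10. The 16 lysozyme genes together had 29.4 RPM in N2, 221 in dis-3, 391 in exos-1 and 56.1 in eri-1. In the eri-1 combinations they had 345, 571 and 611 with dis-3, exos-1 and exos-10. Loss of rrf-1 and rrf-2 from the dis-3 combination left 63.2 RPM, and 4 of the 8 immune genes tested were then lower, lys-1, lys-2, spp-1 and irg-8, against 4.07% of all genes. With NRDE-3, 12 of 37 were higher in exos-1, against 4.83% of all genes, and 4 of 28 in exos-10, against 4.3%. By the normalization number 52.5% and 49.4% of all genes were higher in these 2 comparisons. After fib-1, mtr-4 and nol-56 RNAi, 0 of 10, 2 of 17 and 2 of 12 were higher, against 2.73%, 3.97% and 5.71% of all genes, and none was lower, against 2.95%, 12.7% and 16%.

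Some members cannot be separated from near-identical copies. In the annotation 3 symbols are held by 2 gene IDs each, and RefSeq names at the same coordinates separate clec-13 from clec-15 and clec-248 from clec-249. Over the 17 libraries clec-13 and clec-15 had 154 and 140 antisense reads, and the 2 IDs named clec-209 had 165 and 148 antisense and 4810 and 4725 sense reads. How the counting treated reads that fit both copies is not given in the sources used here, so the values of single copies are uncertain. Counts of members hold each copy as its own member. Both IDs named clec-209 are among the 8 higher after mtr-4 RNAi. Likewise clec-13 and clec-15 are both among the 9 higher with NRDE-3 in exos-1.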

How the data were processed

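Small RNA reads were counted in 17 libraries, 1 per condition. Per the labels and the study's methods, RNA was treated with phosphatase and kinase before cloning, and the authors aligned reads with Bowtie2 to the WS243 transcriptome and deposited raw counts of sense and antisense reads for each transcript, made with their own scripts. A gene was the sum of its transcripts; the Bowtie2 version is not given in the sources used here. Between 0 and 3 empty count cells per library were read as 0.

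Antisense counts were divided by all antisense protein-coding reads of the library, and sense counts likewise. Comparisons were ratios with exact conditional 95% intervals (scipy 1.17.1, Python 3.11.15), without p-values, since each condition has 1 library. Members needed 10 antisense reads in either library and a 4-fold difference, with a floor of 3 reads. Intervals and floors cover counting error only, as reads carried no molecular identifiers. The statistics were tested on simulated counts.

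Named genes are clec-72, the 15 members highest in mean antisense share, the 5 highest in mean sense share, up to 3 per direction and comparison with the largest change among those with 100 reads, and listed defence genes. Other clec genes named with their values or in small counts were chosen after their values were seen. The members and lists were chosen with earlier results of these data known. Alternatives were 2 other scalings, other folds and filters, largest transcripts and left-out members. Promoter and protein sequences were not used here.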

Additional observations from a re-analysis of the deposited data

Results flagged for a closer look

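Per antisense protein-coding read, the family's level stood in opposite directions in total small RNA and in NRDE-3 libraries under the same mutations, and the difference between the 2 kinds of library was not itself tested. For exos-1(ust57) on eri-1(mg366) the ratio to the control was 1.77 in total small RNA and 0.0700 with NRDE-3. For exos-10(ok2269) it was 1.51 in total small RNA and 0.0397 with NRDE-3. In both cases the direction with NRDE-3 came from clec-72, since the ratios without that gene were 2.09 and 1.19. The direction in total small RNA depends on the scaling, since for exos-1 it turned to 0.908 by the normalization number, and for exos-10 it was 1.04 by the median of ratios.

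A signal also appeared outside the 240 members. RefSeq lists clec-188 as a pseudogene, and it has a row in the deposited tables without a clec symbol in the Ensembl names used here. Of its 368 antisense reads, 140 were in the mtr-4 RNAi library, the most in any library, and 30 sense reads were counted in all. The other 9 such loci had at most 7 antisense reads in a library.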

How the results depend on the processing

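No paired analysis was possible because each condition has 1 library and no replicate numbers are shared. With 1 library per condition no library could be left out, and members were left out instead. Alternatives are given here only where they moved a value beyond its counting interval, turned its direction or changed a count of members by over 1.5 times, and the cause was not tested. Counts of members stand here without the share of all genes, which for the other scalings is given with each comparison above. For a fold of 2 and for no filter that share is not given, so those counts do not set the members apart from other genes. In the lists, the single mutants are against N2, eri-1 combinations against eri-1, rrf loss against dis-3, and RNAi against L4440. Scaled by the normalization number, the family ratio was 1.68 for dis-3, 1.99 for exos-1, 8.77, 0.265 and 0.137 with NRDE-3 for dis-3, exos-1 and exos-10, 0.669 for fib-1 and 0.881 for mtr-4. It turned direction for eri-1;dis-3 (0.717), eri-1;exos-1 (0.908) and nol-56 (0.458), while for clec-72 with NRDE-3 it was 8.91, 0.00306 and 0.00112. By the median of ratios the family ratio was 2.65 for dis-3, 2.02 for exos-1, 1.48 for eri-1;exos-1, 1.04 for eri-1;exos-10, 0.576 and 0.0158 for rrf loss in total and NRDE-3 RNA, 2.17 and 0.0351 for NRDE-3 dis-3 and exos-10, 2.20 for mtr-4 and 2.04 for nol-56, turned to 1.20 for fib-1, and for clec-72 in NRDE-3 dis-3 it was 2.20. Without clec-72 the NRDE-3 ratios were 1.87 for dis-3 and 0.751 for rrf loss and turned to 2.09 for exos-1 and 1.19 for exos-10. Without the member with the most reads these 4 were the same, and the ratio was 1.64 for dis-3, 2.12 for exos-1, 1.56 for eri-1;dis-3, likewise 1.56 for eri-1;exos-1, and 1.95 for eri-1;exos-10. With 1 transcript per gene, the largest, it was 0.0663 for NRDE-3 exos-1 and 0.874 for mtr-4, and turned to 1.04 for fib-1 and 0.993 for nol-56. With a fold of 2, higher members numbered 4 (eri-1), 12 (dis-3), 28 (exos-1), 4 (eri-1;dis-3), 21 (eri-1;exos-1), 5 (eri-1;exos-10), 2 (rrf loss), 1, 18 and 4 (NRDE-3 dis-3, exos-1, exos-10), 9 (fib-1), 26 (mtr-4) and 13 (nol-56). Lower members were then 4 (dis-3), 6 (exos-1), 2 (eri-1;dis-3), 2 (eri-1;exos-10), 8 and 14 (NRDE-3 exos-1, exos-10), 7 (fib-1), 5 (mtr-4) and 7 (nol-56). With no filter on low counts, 4 were higher in eri-1 and 7 in NRDE-3 dis-3, and 19, 12 and 6 were lower in NRDE-3 exos-1, exos-10 and rrf loss. The counts under the other scalings, added after seeing the data, were by the normalization number 1 higher for eri-1, 21 for exos-1, 0 for eri-1;dis-3, 2 for eri-1;exos-1, 1 for rrf loss, 1, 35 and 17 for NRDE-3 dis-3, exos-1 and exos-10, 0 for fib-1 and 1 for nol-56, and 2 lower for eri-1;dis-3, 1 each for NRDE-3 exos-1 and exos-10, 1 for fib-1 and 9 for nol-56. By the median of ratios they were 11 higher for dis-3, 21 for exos-1, 6 for eri-1;exos-1, 0 for NRDE-3 exos-10, 27 for mtr-4 and 12 for nol-56, and 0 lower for dis-3, mtr-4 and nol-56 and 2 for eri-1;exos-10. The median over all genes tested moved by between −1.27 and 1.92 (log2) under the normalization number, so directions of small family differences depend on the scaling. Of the 14 sense ratios of clec-52 under that number, also added later, 5 moved and none changed direction. Depth limits the NRDE-3 dis-3 library most, where 3 reads are 67.2 RPM.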
